A study of Mus musculus with 12 samples.

Results

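The checkpoint and regulatory T cell genes described here were 10 genes chosen by symbol, found as 10 of the 55401 gene rows of an expression table of 12 mouse tumour libraries. They were the receptor genes Pdcd1 (PD-1), Ctla4, Lag3, Havcr2 (TIM-3), Tigit and Icos, the ligand genes Cd274 (PD-L1) and Pdcd1lg2 (PD-L2), and the transcription factor genes Tox and Foxp3. MTC-Q1 oral cancer cells had been grown as orthotopic tumours in C57BL/6 mice, and treatment began at a tumour volume of 100 mm3. The 4 groups, with 3 libraries each, received an isotype control (Ctrl-IgG), a CSF1R-binding antibody (aCSF1R), IL-10 carried on an antibody Fc part (IL-10-Fc), or BF10, in which human IL-10 is fused to an antibody against mouse CSF1R. The labels give the number of doses as 6 in one place and as 4 in another, they give no age, and they name 1 cell line for all tumours. No label says that the 3 libraries of a group came from separate animals, so p-values measure the spread between these libraries, which may be technical.

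Immune checkpoints are receptors that restrain a T cell after it has met its antigen. PD-1 is engaged by PD-L1 and PD-L2, which tumour cells and myeloid cells can carry, CTLA-4 competes with CD28 for CD80 and CD86, LAG-3 binds MHC class II, and TIGIT competes with CD226 for the nectin-like ligand PVR. ICOS is a costimulatory relative of CTLA-4 and CD28. FOXP3 specifies regulatory T cells, which also carry CTLA-4, ICOS and TIGIT, and TOX maintains the exhausted state of T cells that are stimulated for long. Interferon gamma is the best known inducer of PD-L1, and IL-10 and CSF1R act on the macrophages and T cells in which most of these genes are used. The question that the groups address is whether delivering IL-10 with a macrophage antibody leaves another checkpoint pattern in the tumour than either component.

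In the GRCm38 build with the GENCODE M21 annotation, 2 pairs of members are neighbours. Ctla4 (chr1:60887000-60915832, + strand) lies 62.1 kb before Icos (chr1:60977927-61000320, + strand), and Cd274 (chr19:29367455-29388095, + strand) lies 22.8 kb before Pdcd1lg2 (chr19:29410919-29471161, + strand). The others stand alone, Pdcd1 at chr1:94038305-94052553 (- strand), Lag3 at chr6:124904361-124911705 (- strand), Havcr2 at chr11:46454935-46481255 (+ strand), Tigit at chr16:43648867-43664146 (- strand), Tox at chr4:6686353-6991557 (- strand) and Foxp3 at chrX:7573644-7595245 (+ strand). Exons of Cd274 overlap those of the opposite-strand gene AC119228.1, exons of Tox those of Gm11802, and exons of Foxp3 those of Ppp1r3f, Gm36995 and Ccdc22 on the opposite strand and of Flicr on its own strand. The library kit kept strand, but the use of strand in counting is not given in the sources used here, so the values of Cd274, Tox and Foxp3 are uncertain by the reads of those partners.

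RefSeq promoters of 300 bases in GRCm38.p6, from 250 before to 50 after the annotated start, were found for 7 of the 10 members. The promoters of the PD-L1, PD-L2 and TIGIT genes are shown because the values below turn on Cd274 and Tigit, and because Pdcd1lg2 is the neighbour of Cd274. Capitals mark the NFAT core GGAAA on either strand, so that TTTCC is the same core read from the other strand.
Cd274 (chr19:29367188-29367487, + strand): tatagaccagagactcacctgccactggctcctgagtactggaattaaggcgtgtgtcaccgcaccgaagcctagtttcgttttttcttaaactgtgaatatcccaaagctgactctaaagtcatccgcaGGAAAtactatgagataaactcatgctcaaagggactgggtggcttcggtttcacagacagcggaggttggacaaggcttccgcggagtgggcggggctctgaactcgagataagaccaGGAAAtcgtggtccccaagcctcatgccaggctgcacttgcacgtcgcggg
Pdcd1lg2 (chr19:29410669-29410968, + strand): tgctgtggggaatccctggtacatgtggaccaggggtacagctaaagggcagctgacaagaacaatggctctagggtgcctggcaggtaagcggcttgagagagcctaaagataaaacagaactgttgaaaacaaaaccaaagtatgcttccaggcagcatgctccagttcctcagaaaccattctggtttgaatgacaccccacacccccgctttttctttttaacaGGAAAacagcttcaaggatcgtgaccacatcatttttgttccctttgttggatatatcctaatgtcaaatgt
Tigit (chr16:43664135-43664434, - strand): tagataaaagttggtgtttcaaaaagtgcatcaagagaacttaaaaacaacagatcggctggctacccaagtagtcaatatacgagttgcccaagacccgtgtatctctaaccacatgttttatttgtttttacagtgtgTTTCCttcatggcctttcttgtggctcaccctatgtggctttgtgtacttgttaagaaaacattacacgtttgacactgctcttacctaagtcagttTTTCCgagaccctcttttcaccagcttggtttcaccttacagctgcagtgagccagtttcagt
NFAT is a factor switched on by T cell receptor signalling, and its core was present in 61.3% of all 32851 promoters of this length, so its 2 copies before Cd274, 1 before Pdcd1lg2 and 2 before Tigit are a description of the sequence. The interferon gamma motif TTCNNNGAA (GAS), searched on both strands, was found in none of these 3 windows and in 8.30% of all promoters. The interferon motif GAAANNGAAA (ISRE) was also found in none of the 3, against 3.44% of all promoters. The absence of these letters from a window says nothing about the factors.

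The libraries carried 3 differences that their group names do not describe. H2-Ea, an MHC class II gene that C57BL/6 mice do not transcribe, was at 0.04 to 0.27 FPKM (fragments per kilobase of transcript, scaled to the library's mapped reads) in 6 libraries, those of Ctrl-IgG and aCSF1R, and at 553 to 1727 FPKM in the other 6, those of IL-10-Fc and BF10, which goes against the strain on the label. The female transcript Xist split the same libraries, at 0.01 to 0.04 against 17.1 to 30.7 FPKM, as did the simple epithelial keratin Krt18 at up to 0.09 against 294 to 614 FPKM. Every comparison of IL-10-Fc or BF10 with Ctrl-IgG or aCSF1R is therefore also a comparison across this split, and treatment and split cannot be told apart. The labels give 1 strain and 1 cell line for all 12 libraries, and these values leave both in doubt for at least 1 side of the split. The Y-linked Eif2s3y was at 4.23 FPKM or more in the first 6 libraries. Among the others it was at 3.29 FPKM in BF10 replicate 3 and at 0.05 FPKM or less in the rest. BF10 replicate 3 held both sex-linked transcripts, with Xist at 23.65 FPKM. The 4 libraries with the highest FPKM sums, which were BF10 replicate 1, IL-10-Fc replicates 1 and 2 and Ctrl-IgG replicate 2, had a mitochondrial share of 6.57% to 9.04%, against 2.99% to 3.61% in the other 8. The share of all genes that separate these 4 libraries from the other 8 was not counted. Where a gene below separates them, this is a description and not a trait particular to that gene. Ctrl-IgG replicate 3 and aCSF1R replicates 1 and 2 held summed keratinocyte markers of 637 to 1350 FPKM. Relative depth, read from the steps between low values, was 0.946 to 1.41 times that of Ctrl-IgG replicate 1.

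RNA of T cell markers was found in every library. The 17 T cell markers averaged 2.78 to 4.53 FPKM in 10 libraries and 11.3 and 9.26 FPKM in BF10 replicates 2 and 3. B cell markers summed to 159 and 89.6 FPKM in the same BF10 libraries and to 0.72 to 8.42 FPKM in the other 10. In a piece of tumour, fewer cells of a type and less RNA per cell cannot be told apart, and this holds for each value that follows.

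**Figure D1:**
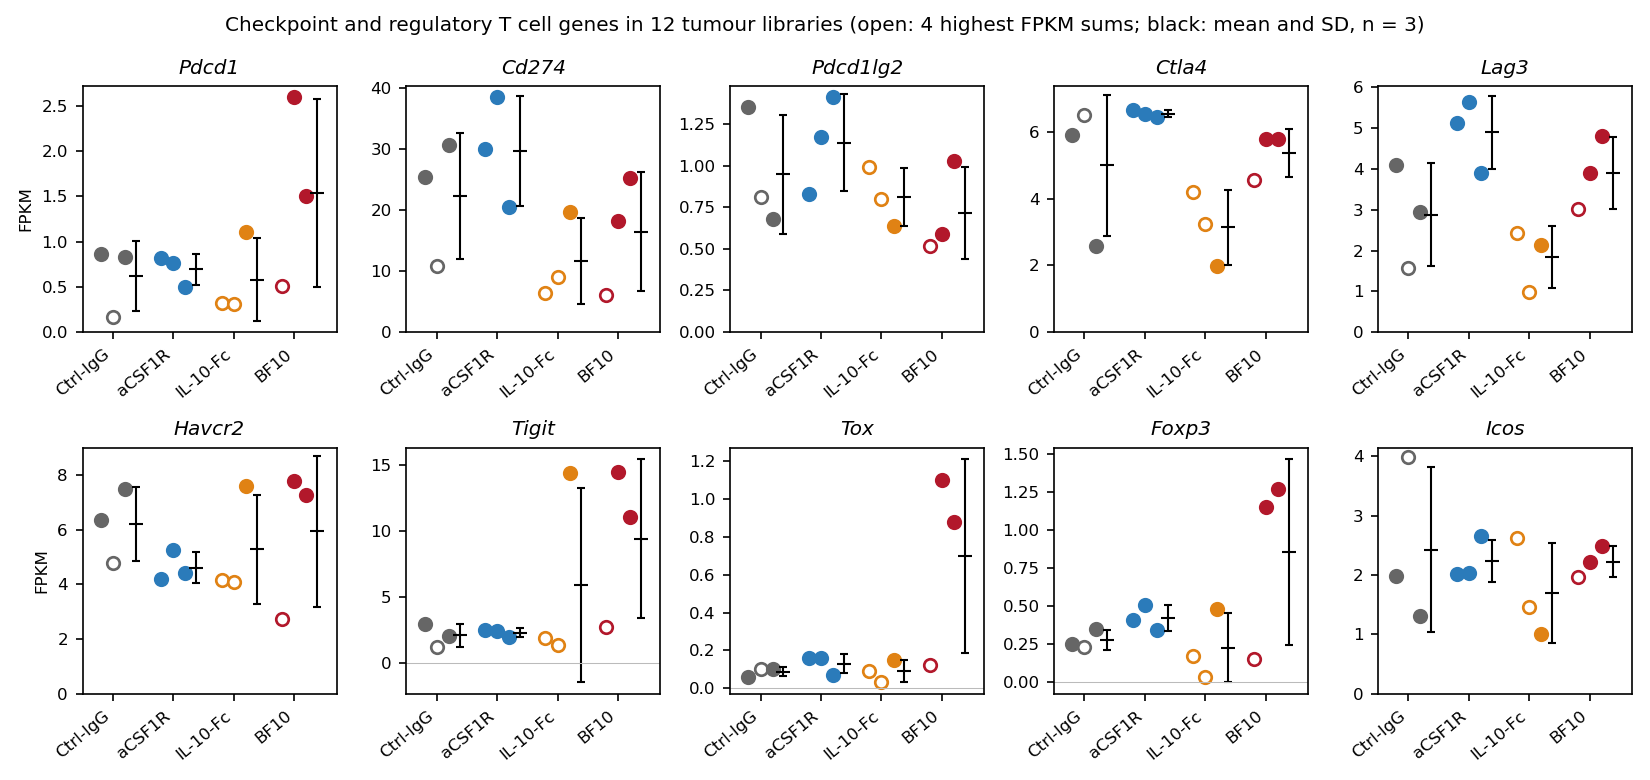
FPKM of the 10 genes (y axis, 1 panel a gene) in the 12 libraries by group (x axis), with open points for the 4 libraries of highest FPKM sum and black bars for the group mean and SD (n = 3). Tigit stands at 11.1 to 14.5 FPKM in 3 libraries and at 2.95 FPKM or less in the other 9, and every open Cd274 point lies below every filled one.

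None of the 8 members that could be tested differed between groups beyond the threshold. Genes entered the limma fit on log2(FPKM + 1) when 3 or more libraries reached 1 FPKM, which excluded Tox and Foxp3, and were called at a Benjamini-Hochberg adjusted p under 0.05 with a change of at least 1.5-fold. For BF10 against Ctrl-IgG 0 of 8 members were called where 24.9% of all 15813 genes were, for IL-10-Fc against Ctrl-IgG 0 of 8 where 33.7% were, and for BF10 against aCSF1R 0 of 8 where 25.0% were. For aCSF1R against Ctrl-IgG 0 of 8 were called where 0.0% of all genes were, for BF10 against IL-10-Fc 0 of 8 where 0.0126% were, and for the deviation of BF10 from the added effects of aCSF1R and IL-10-Fc 0 of 8 where 0.00632% were. In the last 3 comparisons almost no gene of the whole table was called.

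At an unadjusted p under 0.05, limma gave 1 member (Tigit) for BF10 against Ctrl-IgG, where 36.3% of all genes passed, and 1 member (Lag3) for BF10 against IL-10-Fc, where 5.24% passed. It gave 0 members for IL-10-Fc against Ctrl-IgG (45.2% of all genes), aCSF1R against Ctrl-IgG (2.76%), BF10 against aCSF1R (37.4%) and the deviation from added effects (2.61%). The median log2 difference of the 8 members was 0.07 for BF10 against Ctrl-IgG beside -0.12 over all genes, and -0.27 for IL-10-Fc against Ctrl-IgG beside -0.39. It was 0.14 beside 0.11 for aCSF1R against Ctrl-IgG, 0.52 beside 0.34 for BF10 against IL-10-Fc and -0.13 beside -0.21 for BF10 against aCSF1R. The comparisons share their control and BF10 libraries and are not independent of each other. The share of all genes whose groups do not overlap was not counted. Where groups are said below not to overlap, this is a description of the 3 libraries of each.

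**Figure D2:**
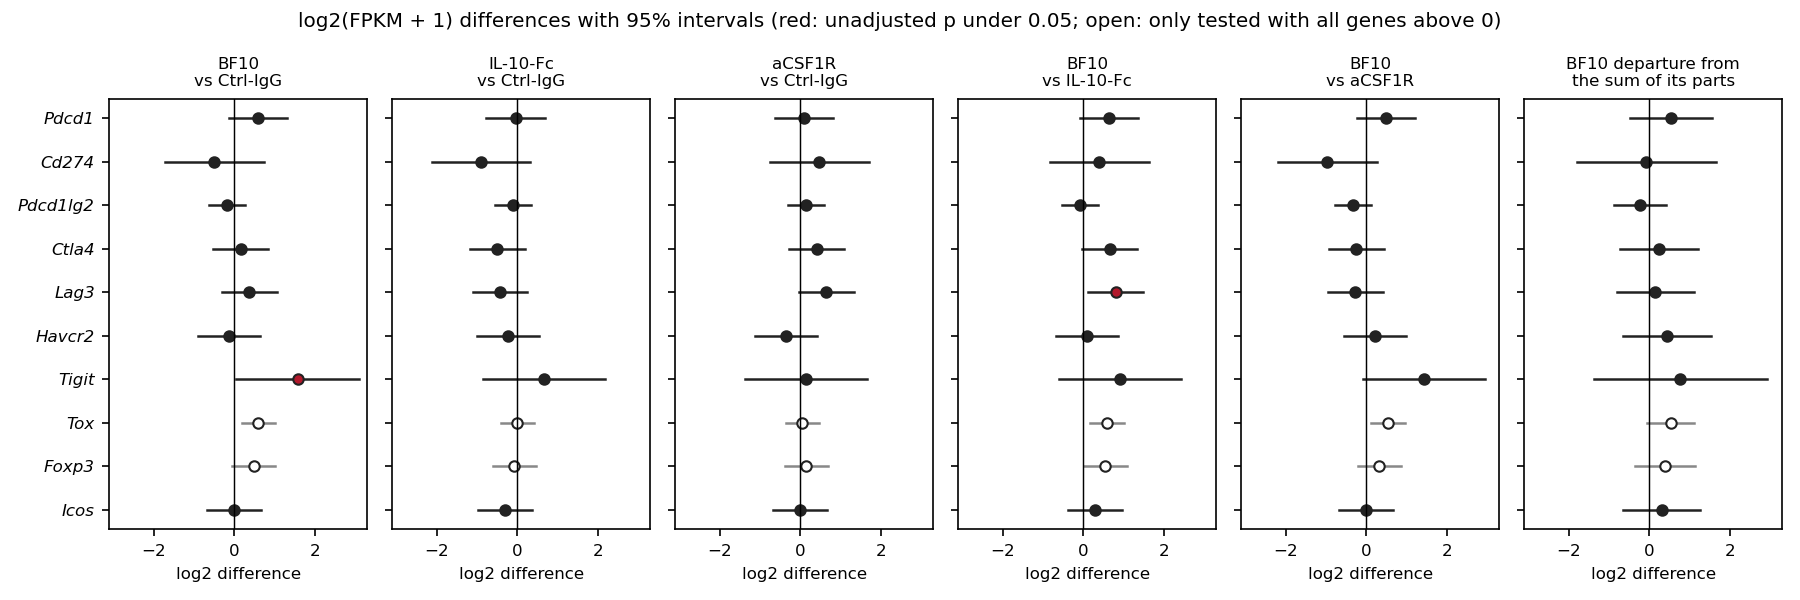
Difference in log2(FPKM + 1) for each gene (y axis) in the 5 comparisons of groups and in the deviation of BF10 from the added effects of aCSF1R and IL-10-Fc (x axes), as points with 95% intervals from limma. Red points are the Tigit value of 1.57 and the Lag3 value of 0.81, the only ones of the 8 tested genes with an unadjusted p under 0.05, and open points are Tox and Foxp3 from a fit of all genes above 0.

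Tigit, the receptor for PVR, had the widest range of the 10 on the log2(FPKM + 1) scale. It was at 2.95, 1.2 and 2.02 FPKM in Ctrl-IgG, at 2.5, 2.41 and 1.92 in aCSF1R, at 1.87, 1.36 and 14.4 in IL-10-Fc, while BF10 held 2.69, 14.5 and 11.1. The 3 high libraries all lay on the IL-10 side of the split, and in each of those groups the libraries of high FPKM sum stayed at the control level. On that side the 3 high libraries also carry a 6 or 7 as the first number of their title and the 3 low ones a 2 or 4, so FPKM sum and title number cannot be told apart there. The group means, in the same order, were 2.06 ± 0.876, 2.28 ± 0.312, 5.88 ± 7.39 and 9.41 ± 6.07 FPKM (SD, n = 3). The difference between BF10 and Ctrl-IgG was 1.57 ± 0.69 (SE) on the log2(FPKM + 1) scale, with an adjusted p of 0.125, and the groups overlapped. BF10 did not overlap with aCSF1R (1.44 ± 0.69, adjusted p = 0.155). Against IL-10-Fc the difference was 0.91 with a 95% interval from -0.61 to 2.43.

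Leaving out the 4 libraries of highest FPKM sum turned the Tigit result into a call. BF10 (2 libraries) then exceeded Ctrl-IgG (2 libraries) by 1.99 ± 0.20 (limma adjusted p = 0.00084), and IL-10-Fc, with 1 library whose spread is assumed to be that of the other groups, exceeded it by 2.16 ± 0.25 (adjusted p = 0.00156). BF10 exceeded aCSF1R by 2.07 ± 0.18 (adjusted p = 0.000443), while BF10 and IL-10-Fc differed by -0.17 ± 0.25. In that fit 40.8% of all genes were called for BF10 against Ctrl-IgG, 40.6% for IL-10-Fc against Ctrl-IgG and 41.0% for BF10 against aCSF1R. Besides Tigit, the called members were Pdcd1, which passed the filter only through libraries where it was high, for both BF10 comparisons, and Havcr2 for BF10 against aCSF1R. Over the 23 alternatives for BF10 against Ctrl-IgG the adjusted p of Tigit ranged from 0.000158 to 0.991.

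Set against the mean FPKM of the 17 T cell markers, Tigit was at 128% and 120% in BF10 replicates 2 and 3 and at 519% in IL-10-Fc replicate 3, against 34.1% to 71.6% in the other 9 libraries. IL-10-Fc replicate 3 had the lowest mean of these markers, 2.78 FPKM, but not the lowest median, which was 2.14 FPKM against 0.97 FPKM in IL-10-Fc replicate 2. Its Trac, at 7.6 FPKM, was above the 3.49 to 5.19 FPKM of Ctrl-IgG and aCSF1R, so its ratio depends on how the markers are summarised. As a covariate, the T cell marker mean was taken on the log2(FPKM + 1) scale. With it the BF10 difference from Ctrl-IgG for Tigit was 0.01 ± 0.81 and the IL-10-Fc difference was 0.91 ± 0.56. Pvr, the gene of the main TIGIT ligand, was at 14.4 to 36.2 FPKM across Ctrl-IgG and aCSF1R, at 3.79, 4.43 and 22.2 FPKM in IL-10-Fc and at 6.66, 18.6 and 21.8 FPKM in BF10. The 4 libraries of highest FPKM sum held 3.79 to 14.4 FPKM of Pvr and the other 8 held 18.6 to 36.2 FPKM, without overlap.

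**Figure D3:**
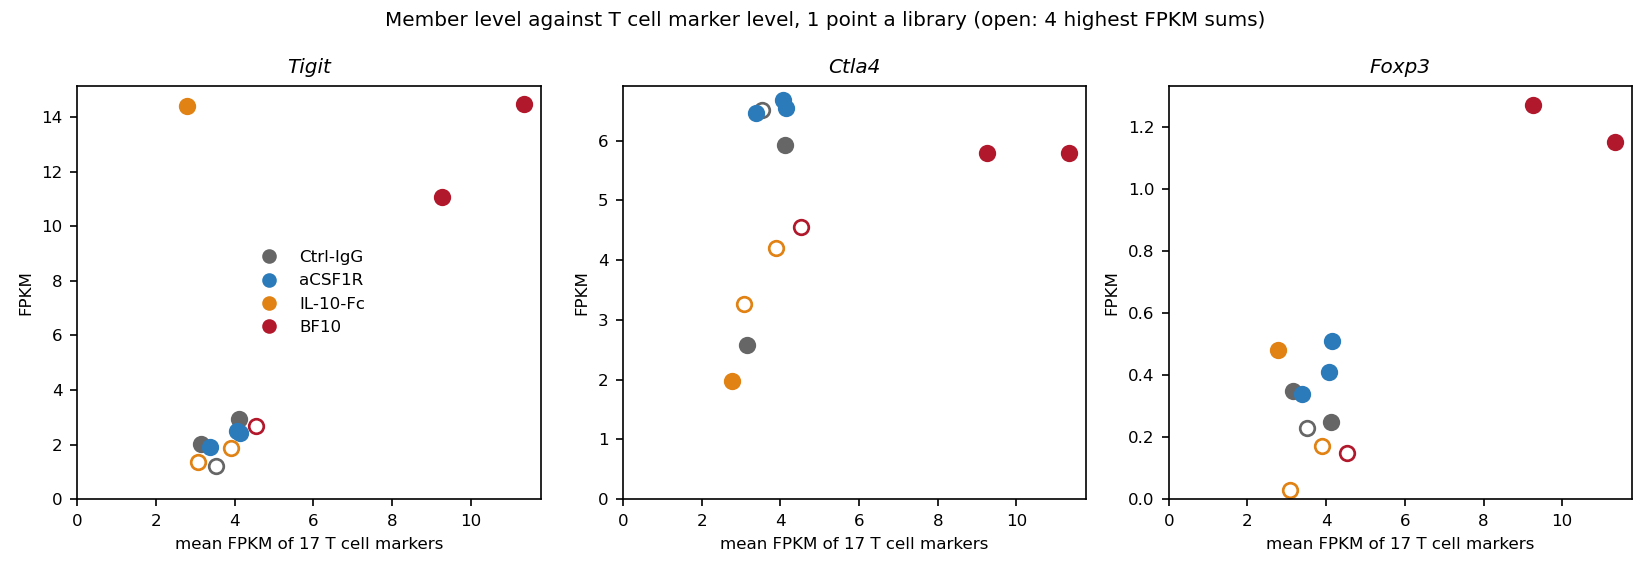
FPKM of Tigit, Ctla4 and Foxp3 (y axes) against the mean FPKM of 17 T cell markers (x axes), with 1 point a library coloured by group and open points for the 4 libraries of highest FPKM sum. IL-10-Fc replicate 3 has 14.4 FPKM of Tigit at the lowest T cell marker mean, 2.78 FPKM, while Ctla4 in BF10 replicates 2 and 3 (5.8 FPKM each) is no higher than in libraries with far lower T cell marker means.

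Pdcd1, the gene of PD-1, was near the limit of the filter, which it passed only through BF10 replicates 2 and 3 and IL-10-Fc replicate 3, so its differences from Ctrl-IgG and aCSF1R are not independent of the filter. It was at 0.86, 0.17 and 0.83 FPKM in Ctrl-IgG, 0.82, 0.76 and 0.5 in aCSF1R, 0.32, 0.31 and 1.11 in IL-10-Fc, while BF10 held 0.51, 2.6 and 1.5. The highest values were those of BF10 replicates 2 and 3, where T cell markers were also highest, and the groups overlapped. The difference between BF10 and Ctrl-IgG was 0.59 ± 0.33 (adjusted p = 0.228), and between BF10 and IL-10-Fc 0.63 ± 0.33 (adjusted p = 0.478). As a share of the T cell marker mean, Pdcd1 was 16.8% ± 5.85 in BF10, 19.4% ± 17.8 in IL-10-Fc, 17.8% ± 2.73 in aCSF1R and 17.4% ± 11.2 in Ctrl-IgG (SD, n = 3), a spread between groups below that within them. Without the 4 libraries of highest FPKM sum the BF10 difference was 0.70 ± 0.22 from Ctrl-IgG and 0.83 ± 0.20 from aCSF1R, values that rest on the same 3 libraries and are given without a test.

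Cd274, the PD-L1 gene, had the highest level of the 10 in every group. It was at 25.4, 10.9 and 30.7 FPKM in Ctrl-IgG, 30.0, 38.5 and 20.6 in aCSF1R, 6.4, 9.04 and 19.6 in IL-10-Fc, while BF10 held 6.02, 18.2 and 25.2. The values separated by library within the groups. The 4 libraries of highest FPKM sum held 6.02 to 10.9 FPKM and the other 8 held 18.2 to 38.5, without overlap. How many of all genes separate in this way was not counted, so the separation is not read as particular to Cd274. The part of the mitochondrial share in the Cd274 differences was not tested. IL-10-Fc differed from Ctrl-IgG by -0.90 ± 0.56 on the log2 scale (adjusted p = 0.231) and BF10 from aCSF1R by -0.97 ± 0.56 (adjusted p = 0.231). Without the 4 libraries these differences were -0.49 ± 0.36 and -0.41 ± 0.27, neither of them called. With the log2 FPKM sum as a covariate the first was -0.22 and not called, while the second was -0.73 and called (limma adjusted p = 0.0497). With the T cell marker mean as a covariate the second was -2.13 and also called (adjusted p = 0.0275, range over 23 alternatives 0.0275 to 0.845).

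**Figure D4:**
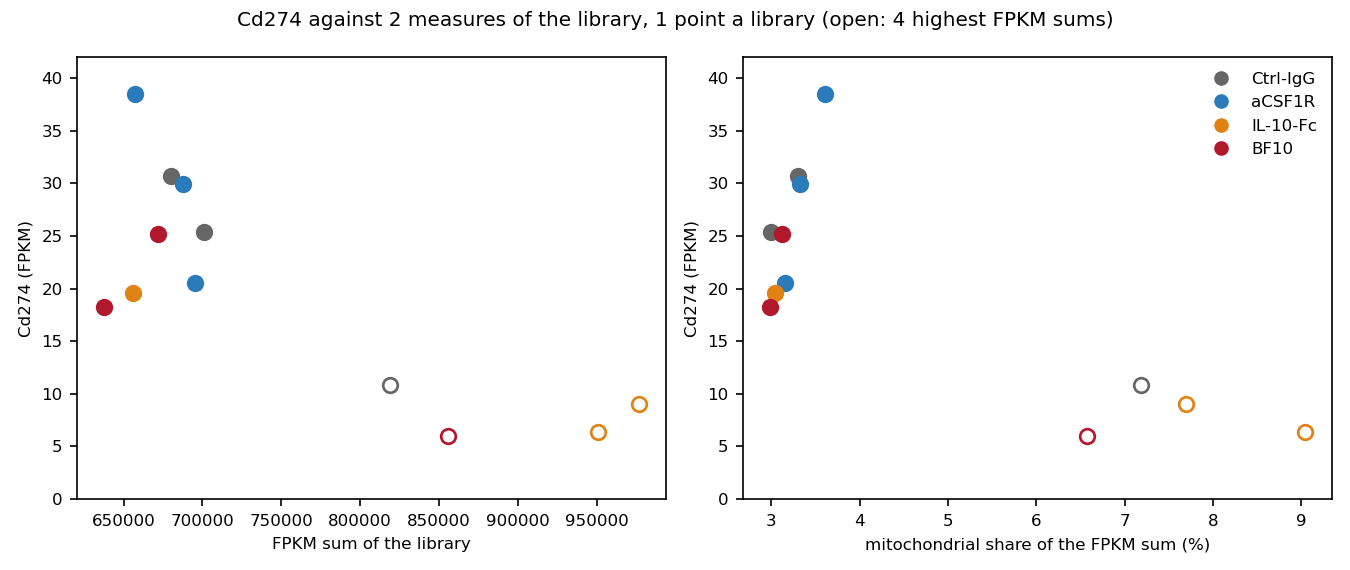
Cd274 in FPKM (y axes) against the FPKM sum of the library (left) and the mitochondrial share of that sum in percent (right), 1 point a library coloured by group, open for the 4 libraries of highest FPKM sum. The 4 open points lie at 6.02 to 10.9 FPKM and the 8 filled ones at 18.2 to 38.5, with libraries of 3 groups among the open ones.

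Pdcd1lg2, the gene of PD-L2, stayed low throughout, between 0.52 and 1.41 FPKM. It was at 1.35, 0.81 and 0.68 FPKM in Ctrl-IgG, 0.83, 1.17 and 1.41 in aCSF1R, 0.99, 0.8 and 0.64 in IL-10-Fc, while BF10 held 0.52, 0.59 and 1.03. It reached 1 FPKM in 4 libraries only. Its 95% intervals of the log2(FPKM + 1) difference were the narrowest of the tested members, reaching 0.45 to either side. That scale understates changes at such low levels, so the narrow interval is not a sign of a well measured gene. On it BF10 minus Ctrl-IgG lay between -0.63 and 0.27. Unlike its neighbour Cd274, it overlapped between the 4 libraries of highest FPKM sum (0.52 to 0.99 FPKM) and the other 8 (0.59 to 1.41 FPKM).

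Lag3, whose product binds MHC class II, was the one member to pass an unadjusted p of 0.05 where BF10 was set against IL-10-Fc, which lie on the same side of the H2-Ea split. It was at 3.02, 3.89 and 4.8 FPKM in BF10 and at 2.43, 0.99 and 2.13 FPKM in IL-10-Fc, so the groups did not overlap. The difference was 0.81 ± 0.31 (95% interval 0.13 to 1.49, limma adjusted p = 0.478, range over 23 alternatives 0.0731 to 0.998). The lowest Lag3 values of either group fell in libraries of high FPKM sum, and so did the highest value of IL-10-Fc (2.43 FPKM, replicate 1). In Ctrl-IgG it was at 4.1, 1.58 and 2.95 FPKM and in aCSF1R at 5.13, 5.65 and 3.9 FPKM, which differed by 0.65 ± 0.31 (adjusted p = 0.959) and overlapped. As a share of the T cell marker mean, Lag3 was 57.1% ± 22.7 in IL-10-Fc and 50.9% ± 16.2 in BF10, against 79.4% ± 30 in Ctrl-IgG and 126% ± 10.5 in aCSF1R.

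Ctla4 was at 5.92, 6.52 and 2.58 FPKM in Ctrl-IgG, at 6.68, 6.54 and 6.46 in aCSF1R, at 4.21, 3.26 and 1.97 in IL-10-Fc, while BF10 held 4.56, 5.8 and 5.8. The 3 aCSF1R libraries lay closer together than those of any other group, and BF10 overlapped with neither IL-10-Fc, which was lower, nor aCSF1R, which was higher. Neither difference was called, and how many of all genes lack overlap in these comparisons was not counted. BF10 differed from IL-10-Fc by 0.65 ± 0.31 (95% interval -0.03 to 1.34, adjusted p = 0.478) and differed from aCSF1R by -0.25 ± 0.31 (adjusted p = 0.591). As a share of the T cell marker mean Ctla4 was 51.1% and 62.7% in BF10 replicates 2 and 3, the lowest of the 12 libraries, and 70.9% to 191% in the others. Ctla4 did not have the high values of Pdcd1, Tigit, Tox and Foxp3 in these BF10 libraries.

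Icos, the neighbour of Ctla4, was at 1.99, 3.99 and 1.3 FPKM in Ctrl-IgG, 2.02, 2.04 and 2.65 in aCSF1R, 2.63, 1.46 and 1 in IL-10-Fc, while BF10 held 1.96, 2.22 and 2.48. The single highest value belonged to Ctrl-IgG replicate 2 and the groups overlapped in all 5 comparisons. The BF10 difference from Ctrl-IgG was -0.02, with a 95% interval from -0.69 to 0.66. As a share of the T cell marker mean it was 19.6% and 26.8% in BF10 replicates 2 and 3, again the lowest of the 12.

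Havcr2, the TIM-3 gene, which macrophages and dendritic cells use as well as T cells, was at 6.37, 4.79 and 7.5 FPKM in Ctrl-IgG, 4.19, 5.25 and 4.42 in aCSF1R, 4.16, 4.09 and 7.6 in IL-10-Fc, while BF10 held 2.75, 7.79 and 7.29. The 4 libraries of highest FPKM sum held 2.75 to 4.79 FPKM and the other 8 held 4.19 to 7.79 FPKM. The group differences were -0.14 ± 0.35 for BF10, -0.23 ± 0.35 for IL-10-Fc and -0.35 ± 0.35 for aCSF1R, each against Ctrl-IgG. Without the 4 libraries BF10 exceeded aCSF1R by 0.61 ± 0.13 (limma adjusted p = 0.00854, range over 23 alternatives 0.00854 to 0.993). Macrophage markers summed to 413 to 542 FPKM in the 3 aCSF1R libraries and to 2324 and 2333 FPKM in BF10 replicates 2 and 3. The fit without the 4 libraries left out BF10 replicate 1. That library held 1533 FPKM of these markers at the lowest Havcr2 of all libraries, 2.75 FPKM. The part of these markers in the difference was not tested.

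Foxp3 and Tox were below 1 FPKM in most libraries. Foxp3 was at 0.25, 0.23 and 0.35 FPKM in Ctrl-IgG, 0.41, 0.51 and 0.34 in aCSF1R, 0.17, 0.03 and 0.48 in IL-10-Fc, while BF10 held 0.15, 1.15 and 1.27. BF10 replicates 2 and 3 were the highest of the 12 and BF10 replicate 1 was among the lowest. Relative to the T cell marker mean Foxp3 was 9.06% ± 5.29 in BF10, 7.54% ± 8.61 in IL-10-Fc, 10.8% ± 1.29 in aCSF1R and 7.91% ± 2.79 in Ctrl-IgG, so the group means differed by less than the spread within IL-10-Fc or BF10.

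Tox was at 0.06, 0.1 and 0.1 FPKM in Ctrl-IgG, 0.16, 0.16 and 0.07 in aCSF1R, 0.09, 0.03 and 0.15 in IL-10-Fc, while BF10 held 0.12, 1.1 and 0.88. The 3 BF10 libraries lay above the 3 Ctrl-IgG libraries, the first by only 0.12 against 0.1 FPKM. In a fit of all genes above 0, which admits such low values, Tox differed between BF10 and Ctrl-IgG by 0.60 ± 0.19 (limma adjusted p = 0.0671) and Foxp3 by 0.48 ± 0.24 (adjusted p = 0.252). Against the T cell marker mean Tox was 9.7% and 9.51% in BF10 replicates 2 and 3 and 0.974% to 5.4% in the other 10 libraries.

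Since FPKM is scaled by transcript length, the levels of the members can be ordered within a group. In Ctrl-IgG the means ran from Cd274 (22.3 ± 10.2 FPKM) through Havcr2 (6.22 ± 1.36), Ctla4 (5.01 ± 2.12), Lag3 (2.88 ± 1.26), Icos (2.43 ± 1.4), Tigit (2.06 ± 0.876), Pdcd1lg2 (0.947 ± 0.355) and Pdcd1 (0.62 ± 0.39) to Foxp3 (0.277 ± 0.0643) and Tox (0.0867 ± 0.0231). Havcr2 and Ctla4 were not separated by their spread, nor were Lag3, Icos and Tigit, nor Pdcd1lg2 and Pdcd1. In BF10 Tigit (9.41 ± 6.07 FPKM) stood second after Cd274 (16.5 ± 9.71), by less than its spread from Havcr2 (5.94 ± 2.78). Cd274 was first and Tox last in all 4 groups.

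The genes whose deviations from the group means were most like those of the members over the 12 libraries were mostly not T cell genes. Tigit was closest to Slc35b4, Zmynd8 and Pmm2 (Pearson r of 0.995 each), Cd274 to Magef1 (0.985), Arhgap33 and Slc26a11, and Havcr2 to Rab8b (0.992), Spata13 and Arhgap30. Tox was closest to Blnk (0.996), a B cell adaptor, with Rasgrp3 and Il16, and Foxp3 to Plcb2 (0.982), Satb1 and Kbtbd11. Pdcd1lg2 was closest to Txk (0.911), a kinase of T and NK cells, Zic4 and the cytotoxic granule gene Nkg7 (0.869). Pdcd1 was closest to Ubxn11 (0.978), Lag3 to Atp6v0b (0.946), Ctla4 to Cd55 (0.919) and Icos to the NK receptor gene Klrb1f (0.934). These r values describe libraries that share the FPKM sum difference and, in BF10, the lymphocyte difference.

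Among the other genes of the checkpoint pathways, Fgl1 and Lgals9 were lower and Cd276 and Nectin3 higher in an IL-10 group than in Ctrl-IgG. Of 11 tested ligand genes, in BF10 against Ctrl-IgG 1 was called higher and 1 lower, where 24.9% of all genes were called (median log2 difference 0.36 beside -0.12 over all genes), 1 higher and 2 lower in IL-10-Fc, where 33.7% were (median -0.21 beside -0.39), and 0 in aCSF1R (median 0.15 beside 0.11). Fgl1, a soluble ligand of LAG-3, was at 3.31 to 7.07 FPKM across Ctrl-IgG and aCSF1R and at 0 to 0.85 FPKM across IL-10-Fc and BF10, so it passed the filter only through the groups where it was high. It differed from Ctrl-IgG by -1.98 ± 0.25 in BF10 (limma adjusted p = 0.000299) and by -2.36 ± 0.25 in IL-10-Fc (adjusted p = 8.09e-05). Cd276, the gene of B7-H3, was at 10.1, 40.2 and 32.5 FPKM in BF10 against 5.75, 1.71 and 6.69 in Ctrl-IgG, a difference of 2.26 ± 0.70 (adjusted p = 0.0374).

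The galectin-9 gene Lgals9, one of the ligands ascribed to TIM-3, was at 131.6, 118.3 and 117.4 FPKM in Ctrl-IgG and at 85.8, 63.3 and 80.6 in IL-10-Fc (-0.68 ± 0.18, limma adjusted p = 0.016). Lgals9 followed the H2-Ea split in every library, at 115 to 137 FPKM across Ctrl-IgG and aCSF1R and 63.3 to 103 FPKM across IL-10-Fc and BF10. Nectin3, a nectin that TIGIT can bind, was higher in IL-10-Fc by 1.18 ± 0.39 (adjusted p = 0.0387). It separated by FPKM sum, at 23.0 to 55.6 FPKM in the 4 libraries of highest sum and 11.2 to 22.8 FPKM in the other 8. Cd86, the ligand of CTLA-4 and CD28 on antigen-presenting cells, was at 10.1, 9.29 and 9.19 FPKM in BF10 and at 2.16, 2.99 and 2.96 in aCSF1R, a difference of 1.52 ± 0.38 (adjusted p = 0.0132). Cd86 too was higher in the 4 libraries of highest FPKM sum (10.1 to 16.7 FPKM) than in the other 8 (2.16 to 9.29 FPKM). Without those 4 libraries, 4 of the 11 ligand genes were called higher and 2 lower for BF10 against Ctrl-IgG, where 40.8% of all genes were called.

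Of 9 tested genes of other inhibitory receptors, in BF10 against Ctrl-IgG 1 was called higher and 2 lower, where 24.9% of all genes were called (median 0.41 beside -0.12), and 2 lower in IL-10-Fc, where 33.7% were (median -0.08 beside -0.39). Btla, an inhibitory receptor of B and T cells, was at 0.78, 14.0 and 8.86 FPKM in BF10 and at 0.19, 0.52 and 0.47 in Ctrl-IgG (2.21 ± 0.61, limma adjusted p = 0.022), high in the same BF10 libraries as the B cell markers. It reached 1 FPKM only in these and in IL-10-Fc replicate 1, so it passed the filter only through groups where it was high. Cd244a, used by NK and CD8 T cells, differed by -1.37 ± 0.30 (adjusted p = 0.00745) and Klrg1, a receptor of NK and effector T cells, by -1.28 ± 0.38 (adjusted p = 0.0314). Cd244a also followed the H2-Ea split, at 3.12 to 7.75 FPKM across Ctrl-IgG and aCSF1R and 0.92 to 2.55 FPKM across IL-10-Fc and BF10. Between BF10 and aCSF1R 4 genes were higher and 2 lower, where 25.0% of all genes were called (median 1.24 beside -0.21), among them the myeloid receptors Pilra (2.12 ± 0.42) and Lair1 (2.00 ± 0.36).

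**Figure D5:**
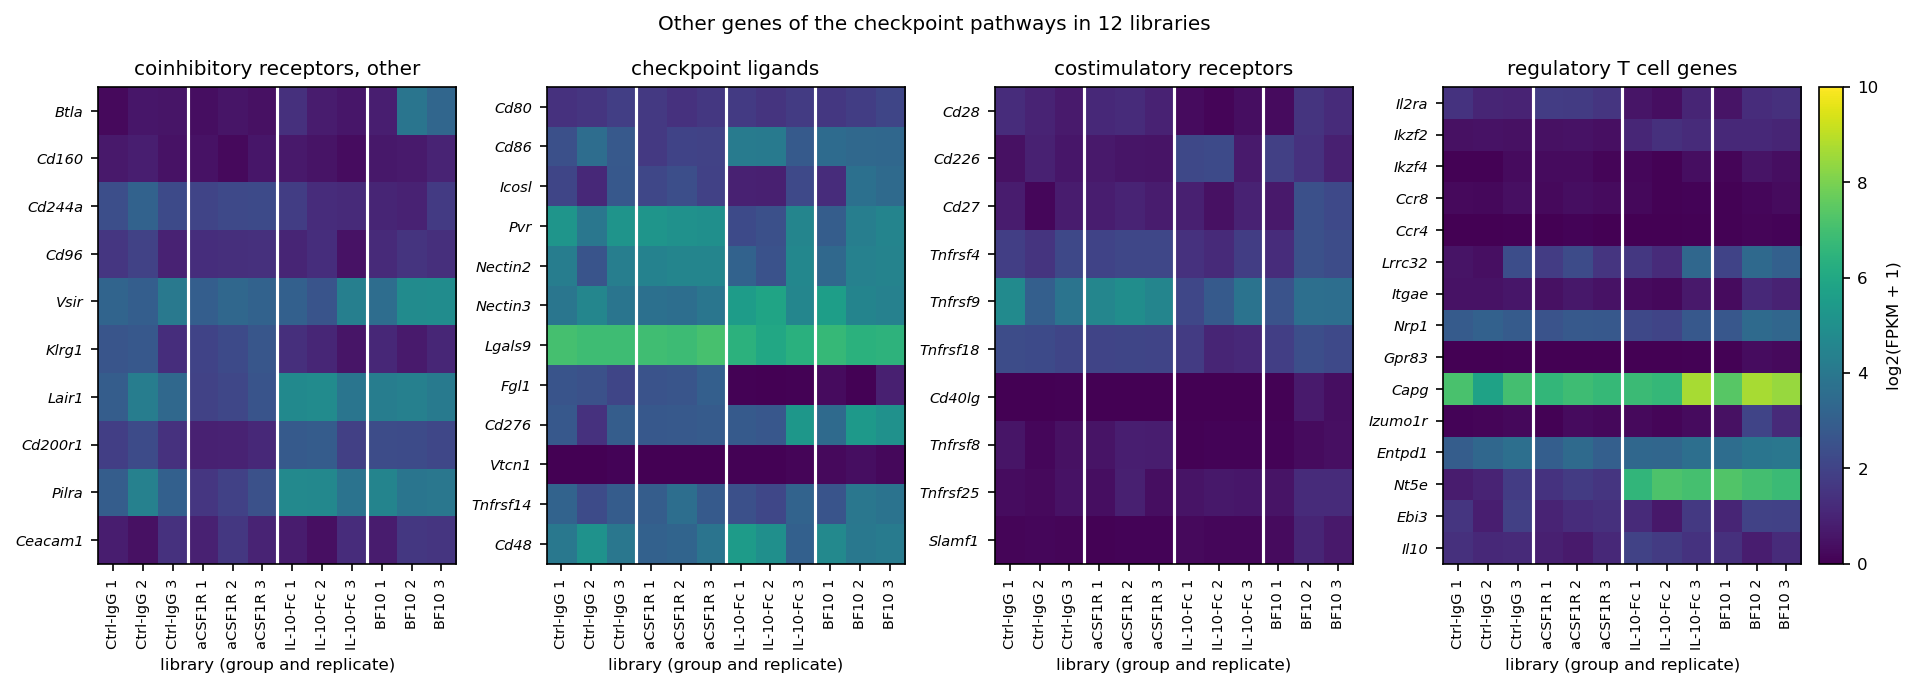
log2(FPKM + 1) (colour) of other inhibitory receptors, checkpoint ligands, costimulatory receptors and regulatory T cell genes (rows, 1 panel a list) in the 12 libraries (columns, white lines between groups). Nt5e is at 94.7 to 154 FPKM across IL-10-Fc and BF10 and at 0.7 to 2.4 in the others, Fgl1 has the opposite pattern, and Btla is high in BF10 replicates 2 and 3.

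Of 5 tested costimulatory receptor genes 0 were called by limma for BF10 against Ctrl-IgG, where 24.9% of all genes were (median 0.02 beside -0.12). At an unadjusted p under 0.05 also 0 passed, where 36.3% of all genes did. In IL-10-Fc 1 was lower, where 33.7% of all genes were called (median -0.72 beside -0.39). That gene, Tnfrsf18 (GITR, prominent on regulatory T cells), was at 4.06, 3.8 and 3.3 FPKM in Ctrl-IgG and at 2.32, 1.04 and 1.21 in IL-10-Fc (-0.93 ± 0.24, adjusted p = 0.0115), while BF10 held 2.65, 4.3 and 3.59 FPKM. BF10 minus IL-10-Fc was 0.86 ± 0.24 for Tnfrsf18 (adjusted p = 0.478).

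Of 9 tested genes of the regulatory T cell list, 2 were called higher and 0 lower both in BF10 and in IL-10-Fc against Ctrl-IgG, where 24.9% and 33.7% of all genes were called (medians 0.50 and 0.47 beside -0.12 and -0.39). They were Nt5e, the gene of the ectonucleotidase CD73, and Ikzf2, the gene of Helios. Nt5e is also used by fibroblasts, epithelia and tumour cells, and its difference of 5.87 ± 0.28 in BF10 (limma adjusted p = 6.53e-07) accompanied the H2-Ea and Krt18 split in every library. Ikzf2 was at 1.03 to 1.59 FPKM across IL-10-Fc and BF10 and at 0.34 to 0.42 in the others, and passed the filter only through the former. Among members of the list closer to regulatory T cells, Il2ra was at 1.79, 1.03 and 1.02 FPKM in Ctrl-IgG and 0.44, 1.38 and 1.61 in BF10, and Ccr8 was at 0.32 FPKM or less in every library. Izumo1r (folate receptor 4) was at 3.18 and 1.3 FPKM in BF10 replicates 2 and 3 and at 0.03 to 0.37 FPKM in the other 10, and Itgae (CD103) at 1.21 and 0.95 against 0.16 to 0.59 FPKM. Lrrc32 (GARP) was at 9.77 and 7.47 FPKM in these BF10 libraries, 8.99 in IL-10-Fc replicate 3 and 0.33 to 4.11 in the other 9, and Gpr83 at 0.25 and 0.19 against 0.04 FPKM or less. IL-10-Fc replicate 3 had the lowest T cell marker mean (2.78 FPKM) and the highest summed fibroblast markers (2332 FPKM). Which cells gave the Lrrc32 values was not tested.

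Of 15 tested T cell markers 5 were called above Ctrl-IgG in BF10 and 0 below, where 24.9% of all genes were called (median 1.01 beside -0.12), with Trac at 1.88 ± 0.35 (limma adjusted p = 0.00274) and Cd8a at 1.06 ± 0.32 (adjusted p = 0.0342). Over the alternatives between 0 and 12 T cell markers were called higher, with 12 in the fit without the 4 libraries of highest FPKM sum. That fit called 40.8% of all genes for BF10 against Ctrl-IgG. Between BF10 and IL-10-Fc 0 of 15 were called, where 0.0126% of all genes were (median 1.01 beside 0.34). There limma gave 12 of 15 at an unadjusted p under 0.05, where 5.24% of all genes passed. Against Ctrl-IgG 0 of 15 were called in IL-10-Fc, where 33.7% of all genes were, and 1 passed unadjusted, where 45.2% did. In aCSF1R against Ctrl-IgG 0 were called, where 0.0% of all genes were, and 0 passed unadjusted, where 2.76% did. Of 10 cytotoxic effector genes 0 were higher and 3 lower in BF10 (median -0.45 beside -0.12), with Gzmb at -2.28 ± 0.50 (adjusted p = 0.00662) and Prf1 at -2.24 ± 0.64 (adjusted p = 0.0249), and 5 were lower in IL-10-Fc, where 33.7% of all genes were called (median -1.18 beside -0.39). NK cell markers, which share Gzma with that list, were lower for 2 of 7 in BF10, where 24.9% of all genes were called. They were lower for 3 of 7 in IL-10-Fc, where 33.7% of all genes were called.

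Of 11 tested exhaustion and memory factors, 1 was higher and 1 lower in BF10 than in Ctrl-IgG, where 24.9% of all genes were called (median 0.35 beside -0.12), and 1 was higher and 2 lower in IL-10-Fc, where 33.7% were (median -0.36 beside -0.39). Eomes, a factor of effector T cells and NK cells, also stands among the NK cell markers. It was at 7.29, 6.41 and 5.84 FPKM in Ctrl-IgG and at 0.63, 0.98 and 1.7 in BF10 (-1.86 ± 0.22, limma adjusted p = 0.000208). It passed the filter only through groups where it was high, so its calls are not independent of the filter. Id3, a factor of memory T cells that many other cells use, was higher by 1.51 ± 0.33 (adjusted p = 0.00659). Tcf7, the factor of stem-like T cells, was at 6.21, 2.7 and 8.53 FPKM in Ctrl-IgG and 1.65, 14.9 and 11.6 in BF10, with BF10 replicates 2 and 3 again the highest of the 12 and the 4 libraries of highest FPKM sum (0.71 to 2.7 FPKM) below the other 8. Of 15 interferon gamma response genes, 3 were called higher and 1 lower in BF10, where 24.9% of all genes were called (median 0.13 beside -0.12), and 6 higher and 2 lower in IL-10-Fc, where 33.7% were (median 0.23 beside -0.39).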

How the data were processed

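Total RNA of orthotopic oral tumour tissue was sequenced as 12 stranded mRNA libraries (4 groups of 3) on an Illumina NextSeq instrument. The submitters' processing notes name STAR 2.7.5a, RSEM 1.3.3 and DESeq2 1.30.0 and the build GRCm38. The authors deposited FPKM values of 55401 genes per library, rounded and with sums that differ between libraries, and tables of their own DESeq2 comparisons, which hold fold changes and p-values and were not used. Identifiers matched GENCODE M21 for 55141 genes (99.5%). FPKM are not counts, so read depth behind a value is unknown, no counting interval was given, and the main test was limma 3.58.1 (R 4.3.3, lmFit, contrasts.fit, eBayes with trend) on log2(FPKM + 1), which understates changes of low genes. All 12 libraries entered 1 model with 4 groups and no covariate. Genes needed at least 1 FPKM in at least 3 libraries (15813 genes). P-values were Benjamini-Hochberg adjusted over these genes, and a call needed a 1.5-fold change and an adjusted p below 0.05. The fit was tested on simulated data.

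Groups came from the treatment in the labels, and replicates were numbered in sample order. All members were given in every library. From each list the called genes with the largest differences were named (up to 4 a comparison), or values of genes with the smallest p. Genes most like a member were the 3 with the highest Pearson r of residuals from the group means. H2-Ea, Xist and Eif2s3y were named because they separate the libraries. Krt18, Pvr, Il2ra, Ccr8, Tcf7, Izumo1r, Itgae, Lrrc32, Gpr83, Cd27, Cd40lg, Icosl, Cd4 and Vsir were named after their values were seen. The members and lists were chosen with earlier results of these data known. Ratios to T cell markers are FPKM over the mean FPKM of 17 markers and were not tested. Relative depth came from the smallest steps between low values. Alternatives changed the pseudocount (0.1), the filter, the scaling (TPM, median-of-ratios factors), the samples and the covariates (FPKM sum, T cell marker mean, title code). No pair of libraries was identical (0 pairs).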

Additional observations from a re-analysis of the deposited data

How the results depend on the processing

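The count of members called was 0 in each of the 6 comparisons and stayed 0 under every alternative for BF10 against IL-10-Fc, for aCSF1R against Ctrl-IgG and for the deviation of BF10 from the added effects of both components. For BF10 against Ctrl-IgG it became 1 (Tigit) with the log2 FPKM sum as covariate, 2 (Pdcd1 and Tigit) without the 4 libraries of highest FPKM sum, and 0 to 1 when single libraries were left out, with Tigit called without IL-10-Fc replicate 3 (adjusted p = 0.0273) or without BF10 replicate 1 (adjusted p = 0.0376). For IL-10-Fc against Ctrl-IgG it became 1 (Tigit) with the FPKM sum as covariate and 1 without the 4 libraries. For BF10 against aCSF1R it became 3 with the FPKM sum as covariate (Pdcd1 and Tigit higher, Cd274 lower). It became 1 with the T cell marker mean as covariate (Cd274, lower) and 3 without the 4 libraries (Pdcd1, Tigit and Havcr2, higher). It was 0 to 1 when single libraries were left out (Tigit without IL-10-Fc replicate 3). Of all 15813 genes, the FPKM sum fit called 6901 for BF10 and 7144 for IL-10-Fc against Ctrl-IgG, and 6740 for BF10 against aCSF1R. The T cell marker fit called 4540 for BF10 against aCSF1R. Without the 4 libraries 40.8% (BF10 against Ctrl-IgG) and 41.0% (BF10 against aCSF1R) were called. Without IL-10-Fc replicate 3 the same comparisons called 4848 and 5001 of 15631 genes. Without BF10 replicate 1 the first called 3719 of 15695. The 4 libraries include BF10 replicate 1 and IL-10-Fc replicates 1 and 2, which held the low Tigit values of their groups. Tigit calls without them are therefore not independent of which libraries were left out. The fit without the 3 libraries with keratinocyte RNA, chosen after seeing the data, called 0 members in each comparison.

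Of 1086 recomputed differences of single members, 980 kept their sign and their side of the threshold, 15 passed it under the alternative only, 82 changed sign from a difference under 1 SE, and 9 from a larger one. With the T cell marker mean as covariate Pdcd1 turned to -0.26 for BF10 against Ctrl-IgG, -0.36 against IL-10-Fc, -0.26 against aCSF1R and -0.35 for the deviation from added effects, Lag3 to -0.15 for BF10 against Ctrl-IgG, and Tigit to -0.90 for BF10 against IL-10-Fc. The last also turned to -0.17 with the FPKM sum as covariate and to -0.17 without the 4 libraries, and Icos for IL-10-Fc against Ctrl-IgG turned to 0.0147 with median-of-ratios factors. The cause was not tested, and none of these values was called. Pdcd1 passes the filter only through libraries where it was high, so its calls are not independent of the filter, and it could not be tested in 3 fits that left out a library (BF10 replicate 2, BF10 replicate 3 or IL-10-Fc replicate 3), since it then missed the filter. No paired analysis was possible because replicates were numbered in sample order, no label says what the numbers in the titles stand for, and no 2 groups share more than 1 first title number. A term for a first title number of 1 to 4 against 5 to 7 called 0 members in each of the 6 comparisons, with Tigit at 1.22 for BF10 against Ctrl-IgG (adjusted p = 0.133). Intervals of the members reach 0.45 to 1.52 on the log2 scale to either side in the 5 comparisons of groups and 0.63 to 2.15 for the deviation from added effects. These intervals are not adjusted for the number of genes, so with 3 libraries a group larger differences could also go uncalled. Tigit at 1.57 for BF10 against Ctrl-IgG had an interval above 0 and was not called (limma adjusted p = 0.125).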

Other observations

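Other receptors and markers of lymphocytes shared the high values of BF10 replicates 2 and 3, and their sources were not tested. Cd27, a costimulatory receptor, was at 0.61, 4.5 and 3.67 FPKM in BF10 and at 0.13 to 0.97 FPKM in the other 9 libraries. Cd40lg, which activated helper T cells carry, was at 0.66 and 0.28 FPKM in BF10 replicates 2 and 3 and at 0.03 FPKM or less in the other 10. The ligand gene Icosl was at 1.38, 11.9 and 10.1 FPKM in BF10 and at 0.85 to 5.72 FPKM elsewhere. Cd4 was at 5.05 and 4.26 FPKM in the same BF10 libraries and at 0.6 FPKM or less in the other 10.

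The inhibitory receptor gene Vsir (VISTA) was at 10.8, 27.4 and 28.0 FPKM in BF10, at 7.49, 5.09 and 18.8 in IL-10-Fc, at 8.38, 6.9 and 15.3 in Ctrl-IgG and at 6.88, 9.05 and 7.92 in aCSF1R. Like Tigit and Cd276, it was highest in BF10 replicates 2 and 3 and IL-10-Fc replicate 3.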
